A study of Mus musculus with 12 samples.

Results

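The natural killer (NK) gene complex is a stretch of mouse chromosome 6 that holds genes for C-type lectin-like receptors of NK cells and T cells. Here it is represented by 10 genes: Klrk1, Klrd1, Klrc1, Klrc2, Klra7, Klra8, Klrb1c, Klrg1, Clec2d and Cd69. They were selected by symbol with measured values of these arrays known, and each was read from its brightest probe that the scanner software called well above background on 2 or more of the 12 arrays. On that rule 9 of the 10 genes were tested, among 25796 features of which 13911 carried a gene symbol. Klrc2 could be matched to no probe and is not analysed here. In the gene order of the RefSeq table, Klrg1 does not lie in the complex itself, and between it and the other members stand 112 (Klrb1c) to 147 (Klra7) protein-coding genes.

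Receptors of this complex come as activating and inhibitory forms that read MHC class I molecules and their relatives on other cells. NK cells carry them from their development on, and CD8+ T cells acquire several of them after activation and in the memory state. The activating receptor NKG2D, encoded by Klrk1, binds stress-induced ligands of the Raet1, H60 and Ulbp1 families and signals through the adaptors encoded by Hcst and Tyrobp. CD94, encoded by Klrd1, pairs with the inhibitory NKG2A (Klrc1) or the activating NKG2C (Klrc2) to bind Qa-1 (H2-T23).

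RNA of purified CD8+ T cells from female C57BL/6 mice was hybridized to 12 Agilent 1-colour arrays. Total CD8+ T cells came from wild-type (WT) peripheral lymph nodes (PLN, 2 arrays), WT mesenteric lymph nodes (MLN, 2 arrays), and from both sites in each knockout, AID KO and uMT (1 array per knockout and site). Naive, CD44low CD8+ T cells were taken from PLN of AID KO and uMT mice and sorted into a Sca1p and a Sca1m fraction, taken as positive and negative for Sca-1 (1 array each). AID KO is given as the labels spell it, and uMT names a mutation of the membrane-bound mu heavy chain that leaves mice without mature B cells. Neither age nor the number of animals is given in the labels. The submitters state that there are no replicates, so the p-values below measure departure from the additive terms of the fit and not a spread between animals. How the lines were bred to C57BL/6 is not given in the sources used here.

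Values are log2 processed intensities relative to the 75th percentile of their array, differences are given ± the standard error (SE) of the fit, and the threshold is an adjusted p of 0.05 in limma with Benjamini-Hochberg adjustment over all features. All differences that involve AID KO refer to arrays labelled AID KO. Levels of different genes come from different probes and were not set against each other. Between 50.1% and 56.8% of the spots of an array were well above background. The total cells occupied slides 1 and 2, each with all 3 genotypes, and the naive cells occupied slide 3, so no comparison was made between naive and total cells. The CD8 T cell markers were high on all arrays, with a mean level of 6.47 to 7.06 over 8 of 8 genes. Of the other defining markers, Cd4 was well above background on all 12 arrays, at -0.38 to 0.69 in total and 1.43 to 1.83 in naive cells. The sort was visible in Ly6a, the gene of Sca-1, with 3.87 and 3.40 in the Sca1p fractions of AID KO and uMT against 0.03 and -0.10 in their Sca1m fractions.

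RefSeq promoter windows of GRCm38.p6, from 250 bases before to 50 bases after the start site, were found for 7 of the 10 members. The windows of Klrk1 and Clec2d are shown because both genes stood above all WT arrays in the arrays labelled AID KO, so that a reader can see what the 2 sequences share. Capitals mark the letters searched on both strands: TGANTCA for AP-1, TGTGGT for Runx factors, TCACAC for T-box factors and GGAAGT for ETS factors. The Klrk1 window (chr6:129623815-129624114, minus strand) holds the Runx letters from position -129 and the AP-1 letters from position 18, counted from the start site as position 1. The Clec2d window (chr6:129180365-129180664, plus strand) holds none of the 4.
Klrk1 promoter: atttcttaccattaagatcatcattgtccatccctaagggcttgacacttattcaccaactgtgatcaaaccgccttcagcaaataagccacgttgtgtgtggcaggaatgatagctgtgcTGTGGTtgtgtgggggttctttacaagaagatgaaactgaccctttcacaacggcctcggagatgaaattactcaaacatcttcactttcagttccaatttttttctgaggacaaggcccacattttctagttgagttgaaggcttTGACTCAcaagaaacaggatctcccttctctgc
Clec2d promoter: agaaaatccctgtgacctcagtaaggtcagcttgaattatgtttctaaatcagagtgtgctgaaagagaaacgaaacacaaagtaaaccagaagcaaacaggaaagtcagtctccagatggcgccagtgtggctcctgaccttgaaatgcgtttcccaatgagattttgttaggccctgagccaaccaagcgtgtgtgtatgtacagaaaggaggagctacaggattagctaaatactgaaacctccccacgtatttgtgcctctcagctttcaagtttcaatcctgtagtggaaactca

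Among all 32851 windows of this length, 7.81% hold the AP-1 letters, 16.8% the Runx letters, 14.5% the T-box letters and 23.8% the ETS letters, so none of these letters is rare. The matches describe the sequence and do not show a binding site, and a window without a match says nothing about the factor.

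Klra7 and Klra8 encode the Ly49G and Ly49H receptors, inhibitory and activating respectively, and belong to a family of near relatives. Their windows are shown because the probes of these genes behaved differently in the arrays labelled AID KO. The most alike of their 4 window pairs (chr6:130233273-130233572 and chr6:130129849-130130148, both minus strand) share 231 identical bases, with 58 mismatches and 22 columns in which only 1 of them has a base, an identity of 74.3%. The least alike of the 4 pairs shares 157 identical bases, so the likeness depends on the windows compared. Capitals mark the bases that differ in the pair shown.
Klra7 promoter: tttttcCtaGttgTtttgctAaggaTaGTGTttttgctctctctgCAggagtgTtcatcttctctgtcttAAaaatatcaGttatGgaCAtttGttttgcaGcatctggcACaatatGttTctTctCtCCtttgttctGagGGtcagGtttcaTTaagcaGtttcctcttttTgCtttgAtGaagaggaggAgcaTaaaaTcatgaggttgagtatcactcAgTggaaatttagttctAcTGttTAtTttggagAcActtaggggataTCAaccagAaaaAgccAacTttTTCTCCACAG
Klra8 promoter: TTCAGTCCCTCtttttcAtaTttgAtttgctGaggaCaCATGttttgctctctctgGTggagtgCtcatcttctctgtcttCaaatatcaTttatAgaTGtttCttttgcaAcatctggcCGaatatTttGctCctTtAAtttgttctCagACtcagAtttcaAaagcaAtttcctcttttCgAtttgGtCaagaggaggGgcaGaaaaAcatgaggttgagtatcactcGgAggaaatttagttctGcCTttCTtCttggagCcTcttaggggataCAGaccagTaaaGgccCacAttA

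**Figure D1:**
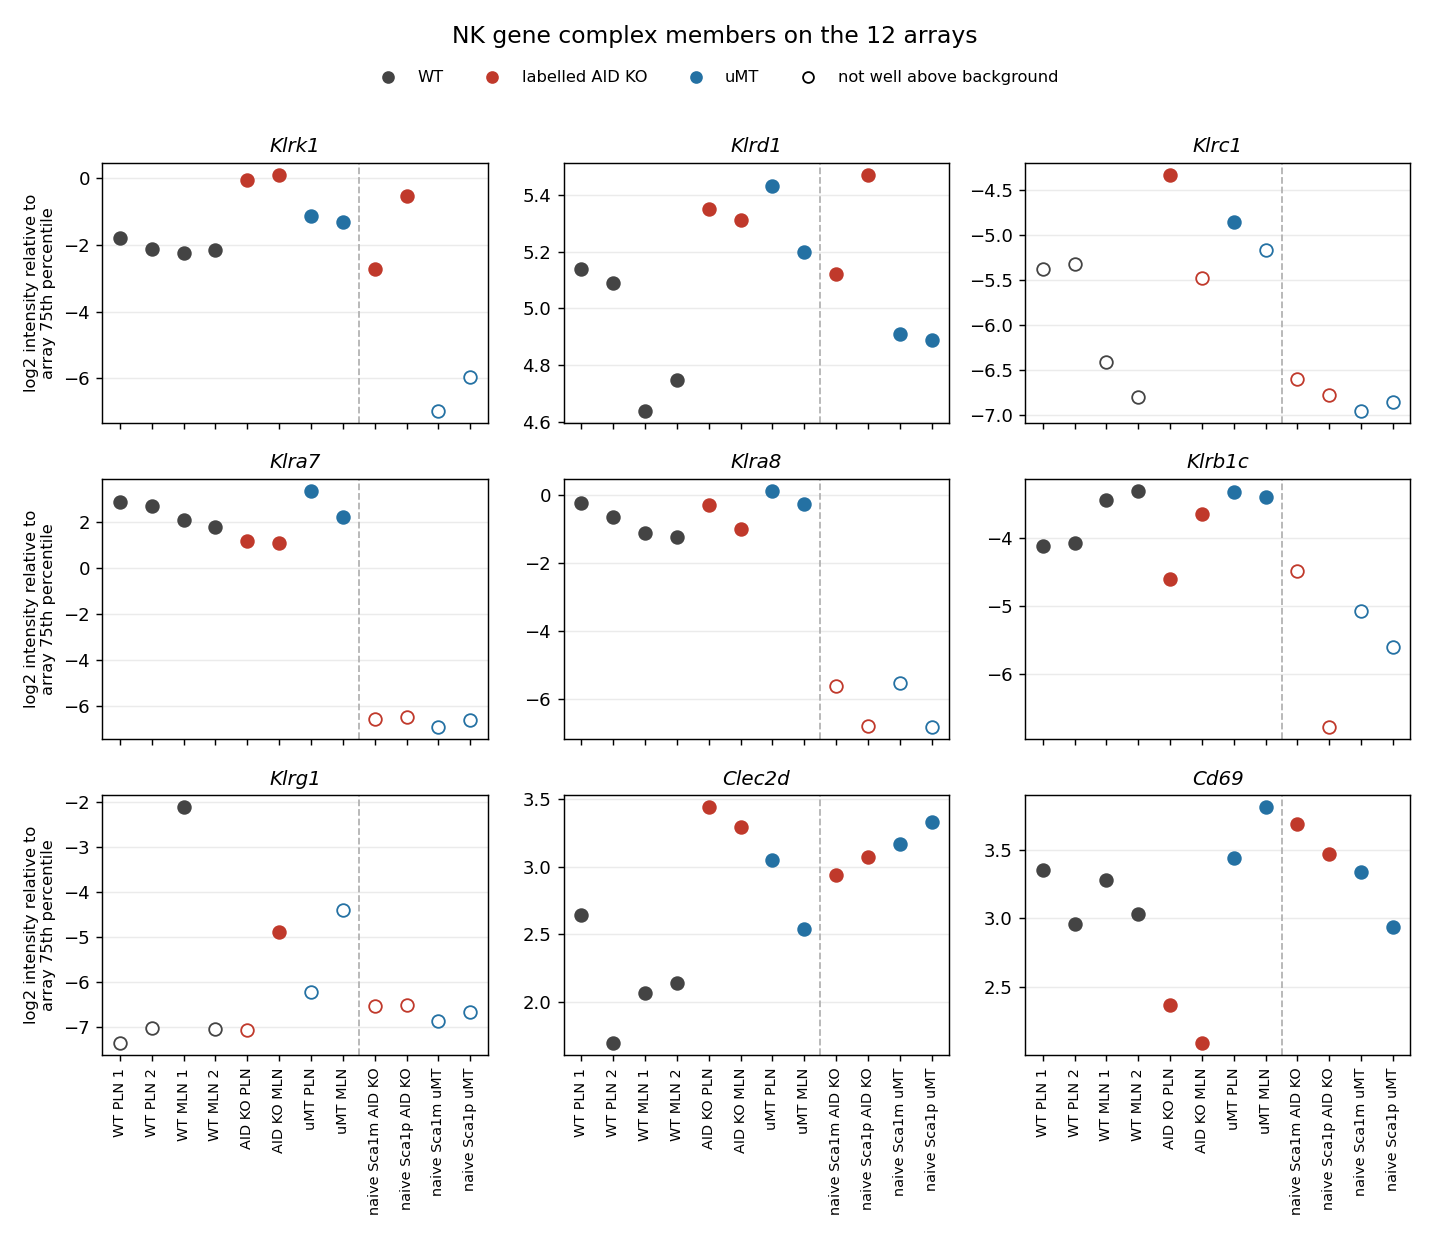
Log2 intensity relative to the array's 75th percentile (vertical axis) of the 9 tested members on each of the 12 arrays (horizontal axis), with total cells left of the dashed line and naive cells right of it. Each point is 1 array, open points were not well above background, and the vertical axes differ between genes. Klrk1 is highest in the total arrays labelled AID KO (-0.06 and 0.10) and not well above background in naive uMT cells, while Cd69 is lowest in the total arrays labelled AID KO (2.37 and 2.09).

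The comparison of the arrays labelled AID KO with WT asks how the members stand in CD8+ T cells of this knockout. Klrk1, Clec2d and Klrd1 were higher and Cd69 and Klra7 lower in both of these arrays than in all 4 WT arrays. Because members were selected with this contrast in view, its values are a description. Of the 9 members tested, 1 was past the threshold upwards (Klrk1) and 1 downwards (Cd69), against 0.888% of all features in either direction. The groups did not overlap for 5 of the 9, against 17.5% of all features.

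Klrk1 was at -1.78 and -2.13 in WT PLN and at -2.24 and -2.15 in WT MLN. It was at -0.06 in AID KO PLN and 0.10 in AID KO MLN, and at -1.14 and -1.33 in uMT PLN and MLN. The 3 genotypes therefore stood in the order AID KO, uMT, WT with no overlap between neighbours. The arrays labelled AID KO were 2.09 ± 0.25 above WT, and the single differences within a slide were 1.72 in PLN and 2.24 in MLN. For comparison, the 2 WT PLN arrays differed by -0.35 and the 2 WT MLN arrays by 0.09. This past-threshold difference depended on each of the 8 total arrays: without any 1 of them it was no longer past the threshold, with adjusted p between 0.0701 and 0.342 in limma and a difference of 1.83 to 2.35. With the replicate block, in which each knockout array is paired with the WT array of its node and slide, the difference was 1.98 (limma adjusted p = 0.202). Only 1 probe measured Klrk1.

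Klrd1, the CD94 subunit, was well above background on all 12 arrays. Its level was 5.14 and 5.09 in WT PLN, 4.64 and 4.75 in WT MLN, 5.35 and 5.31 in AID KO PLN and MLN, and 5.43 and 5.20 in uMT PLN and MLN. All 4 knockout arrays lay above all 4 WT arrays. The difference was 0.42 ± 0.13 for AID KO, which was not past the threshold.

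Klrc1, the gene of the inhibitory partner NKG2A, was well above background on only 2 arrays, AID KO PLN (-4.33) and uMT PLN (-4.85). On the other 10 arrays it ranged from -6.95 to -5.16, so no difference is given. Klrg1, an inhibitory receptor that binds cadherins and marks terminal effector cells, was likewise well above background on only 2 arrays. These were WT MLN replicate 1, at -2.11, and AID KO MLN, at -4.89. The second WT MLN array was at -7.06, so the WT MLN arrays did not share this signal, and a second Klrg1 probe was not well above background on any array. These 2 genes are those just inside the rule of 2 arrays; no member with a probe fell just outside it, but Klrb1c and Klrg1 each had a further probe that was never well above background.

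Klra7 (Ly49G) was at 2.89 and 2.71 in WT PLN, 2.12 and 1.80 in WT MLN, 1.17 and 1.1 in AID KO PLN and MLN, and 3.37 and 2.23 in uMT PLN and MLN. The arrays labelled AID KO were the lowest 2 of the 8. Their difference from WT was -1.25 ± 0.22 and was not past the threshold, with -1.72 in PLN and -0.71 in MLN within a slide. Klra8 (Ly49H), whose product recognizes a cytomegalovirus protein, overlapped between these groups, at -0.28 and -1.0 in AID KO PLN and MLN against -0.24, -0.64, -1.13 and -1.22 in WT. The Klra8 difference was 0.17 ± 0.11, and 1 of its 2 other kept probes gave -0.12 ± 0.26. Probes of this family may share targets, which was not tested.

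Klrb1c encodes NK1.1, the antigen used to define NK cells in C57BL/6 mice. It was at -4.11 and -4.07 in WT PLN, -3.43 and -3.30 in WT MLN, -4.60 and -3.64 in AID KO PLN and MLN, and -3.31 and -3.39 in uMT PLN and MLN. AID KO and WT overlapped, with a difference of -0.39 ± 0.35.

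Clec2d encodes Clr-b, the self ligand that an inhibitory receptor of the Klrb1 family reads on other cells. Its level was 2.64 and 1.69 in WT PLN, 2.06 and 2.14 in WT MLN, 3.44 and 3.29 in AID KO PLN and MLN, and 3.05 and 2.54 in uMT PLN and MLN. Both arrays labelled AID KO lay above every WT and uMT array. They were 1.23 ± 0.26 above WT, not past the threshold, and a second probe gave 1.22 ± 0.21. The 2 WT PLN arrays themselves differed by -0.95.

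Cd69 encodes an early activation lectin that holds lymphocytes in the node by removing the S1P receptor from the surface. It was at 3.35 and 2.96 in WT PLN, 3.28 and 3.03 in WT MLN, 2.37 and 2.09 in AID KO PLN and MLN, and 3.44 and 3.81 in uMT PLN and MLN. The order of the genotypes was uMT, WT, AID KO, with no overlap. The arrays labelled AID KO differed from WT by -0.92 ± 0.08, at -0.98 in PLN and -0.94 in MLN within a slide, and uMT was higher than AID KO by 1.40 ± 0.10. The AID KO difference from WT stayed between -0.95 and -0.90 when 1 array was left out, but it was no longer past the threshold without any 1 of the 4 WT or 2 AID KO arrays (limma adjusted p = 0.0599 to 0.316), nor with the replicate block (-0.96). The difference of uMT from AID KO was no longer past the threshold without any 1 of the 8 total arrays other than WT MLN replicate 1 (limma adjusted p = 0.0597 to 0.232), and with the replicate block it was 1.47 (limma adjusted p = 0.218).

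**Figure D2:**
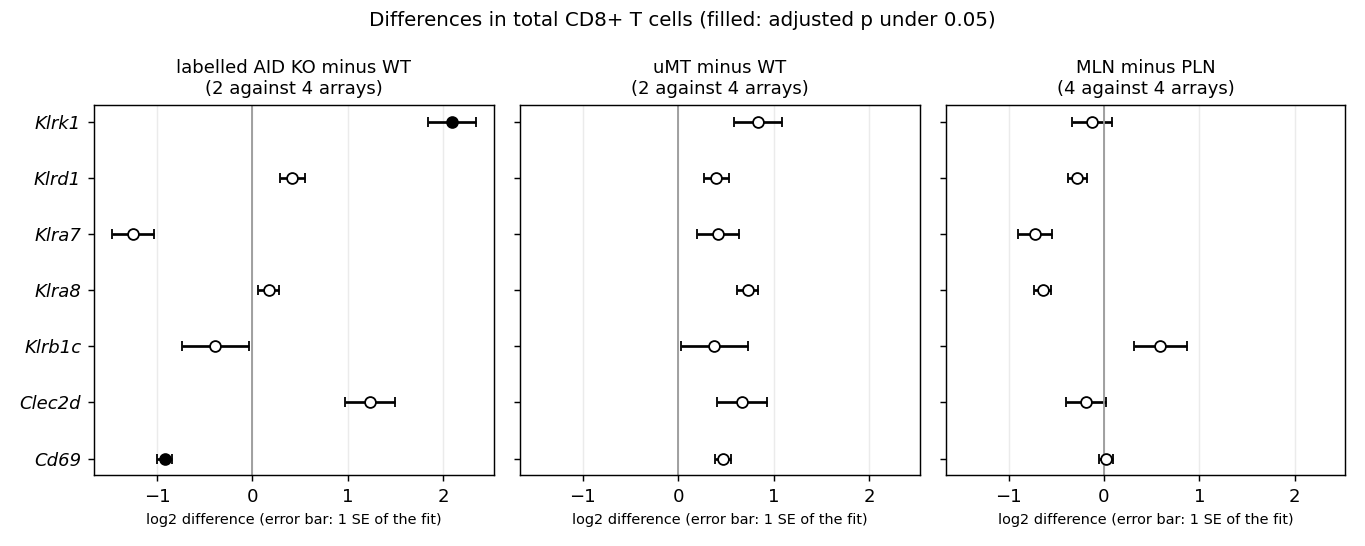
Log2 differences in total cells (horizontal axis) of the 7 members that were well above background on every array of a group, for AID KO minus WT, uMT minus WT and MLN minus PLN. Points are the differences of the fit, bars are 1 SE, and filled points have an adjusted p under 0.05. Klrk1 at 2.09 and Cd69 at -0.92 are the filled points, both in the first panel, and all 7 points of the second panel lie above 0.

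The comparison of the knockouts with each other and that of Sca1p with Sca1m also entered the selection, so their values are a description as well. Between the knockouts in total cells, 1 of the 9 members was past the threshold, Cd69 as given above, against 0.31% of all features. The groups did not overlap for 6 of the 9, against 28.9% of all features. Klra7 was 1.66 ± 0.26, Klrb1c 0.77 ± 0.40 and Klra8 0.56 ± 0.12 higher in uMT than in AID KO. Klrk1 and Clec2d were lower in uMT, with differences of -1.25 ± 0.29 and -0.57 ± 0.30, while Klrd1 overlapped at -0.02 ± 0.15.

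The comparison of uMT with WT is not named in the selection, but it shares its 4 WT arrays with that of AID KO and its uMT arrays with that of the knockouts, and so is not independent of it. None of the 9 members passed, against 0.0349% of all features, and at an unadjusted limma p under 0.05 there were 6 members and 4591 features. The 7 members that were well above background in a whole group had differences of 0.38 to 0.84, where the median of all features was 0.00. Klra8 came closest, 0.73 ± 0.11 higher in uMT (adjusted p = 0.1), with 0.76 in PLN and 0.86 in MLN within a slide and with 0.86 ± 0.26 and 0.92 ± 0.16 from its other kept probes. Its uMT values of 0.12 and -0.27 overlapped the WT range of -1.22 to -0.24, since WT PLN replicate 1 lay between them. With normexp as the background correction it was past the threshold at 0.69 (limma adjusted p = 0.0262). Cd69 was higher by 0.47 ± 0.08 (adjusted p = 0.117), Klrk1 by 0.84 ± 0.25 (adjusted p = 0.205) and Klrd1 by 0.40 ± 0.13 (adjusted p = 0.213). These 3 did not overlap with WT; over the 9 members it was 4, with Klrc1 near background, against 19% of all features. For Clec2d the difference was 0.67 ± 0.26, for Klra7 0.42 ± 0.22 and for Klrb1c 0.38 ± 0.35, with adjusted p of 0.268, 0.374 and 0.59.

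MLN against PLN, a contrast that the selection did not name, compared 4 arrays with 4. None of the 9 members passed, against 0.105% of all features, while 5 members and 2352 features had an unadjusted p under 0.05. Of the Ly49 genes, Klra8 differed by -0.64 ± 0.09 in MLN (adjusted p = 0.0964) and was lower there in all 4 pairs of 1 genotype, at -0.89 and -0.58 in WT, -0.72 in AID KO and -0.39 in uMT. With normexp it was past the threshold at -0.57 (limma adjusted p = 0.02). Klra7 differed by -0.72 ± 0.18 (adjusted p = 0.32), at -0.77 and -0.90 in WT and -1.14 in uMT but -0.07 in AID KO. For both genes the WT pairs each lie within a slide. Each knockout pair spans slides 1 and 2, so node and slide cannot be told apart within it. Klrd1 differed by -0.28 ± 0.10 (adjusted p = 0.507), Klrk1 by -0.13 ± 0.21 (adjusted p = 0.919) and Cd69 by 0.02 ± 0.07 (adjusted p = 0.967). For Klrb1c the difference was 0.59 ± 0.28, higher in MLN (adjusted p = 0.619), and for Clec2d -0.19 ± 0.21 (adjusted p = 0.868). The groups overlapped for all 9 members, whereas 2.17% of all features did not overlap. Whether a knockout difference itself depended on the node could hardly be tested with 1 array per knockout and node: 0 of all features passed for AID KO and 2 for uMT in limma, and no member. For Klra7 the AID KO difference was 1.01 ± 0.33 higher in MLN than in PLN (limma adjusted p = 1).

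In naive CD8+ T cells, Klrk1, Klrd1, Clec2d and Cd69 were well above background in a whole genotype group. Klra7 (-6.94 to -6.49), Klra8 (-6.83 to -5.52), Klrb1c (-6.79 to -4.49), Klrc1 and Klrg1 were not well above background on any of the 4 naive arrays by the probe used. No difference between the naive genotypes is therefore given for them. The second Klrb1c probe was well above background on 1 naive array, Sca1p AID KO, at -2.69, and stood at -7.07 to -6.80 on the other 3. Klrk1 was at -0.54 in Sca1p AID KO and -2.72 in Sca1m AID KO. In uMT it was not well above background, at -5.97 in Sca1p and -6.97 in Sca1m. Both naive arrays labelled AID KO therefore lay above both uMT arrays. By the mean of the 2 fractions and the processed intensities, naive uMT cells were at least 8.46-fold lower than those labelled AID KO. The measured log2 difference was -4.84 ± 0.29. With background modelled by normexp it was -1.91 and no longer past the threshold (limma adjusted p = 0.0781).

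Of the 9 members, Klrk1 alone was past the threshold in that naive comparison, against 0.384% of all features. The groups did not overlap for 7 of the 9, against 30.9% of all features, and this count includes genes near background in both genotypes. Cd69 was at 3.47 and 3.69 in Sca1p and Sca1m AID KO and at 2.94 and 3.34 in uMT, a difference of -0.45 ± 0.10 for uMT minus AID KO. Cd69 was thus lower in uMT here, whereas in total cells uMT was the higher of the 2 knockouts. The 2 differences come from separate slides and their own difference was not tested. Klrd1 was at 5.47 and 5.12 in Sca1p and Sca1m AID KO against 4.89 and 4.91 in uMT (-0.40 ± 0.15). Clec2d was at 3.07 and 2.94 in AID KO and 3.33 and 3.17 in uMT (0.24 ± 0.30).

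Within naive cells, no member passed between Sca1p and Sca1m, against 0.0155% of all features. At an unadjusted limma p under 0.05 there were 4 members and 2154 features. The groups did not overlap for 2 of the 9 members, Klra8 and Klrb1c, whose probes used here were not well above background, against 35.1% of all features. The 2 Klrb1c probes disagreed in sign, at -1.42 ± 0.40 for the probe used and 2.10 ± 0.82 for the second. In the AID KO pair Klrk1 was 2.18 higher in Sca1p, where the 2.5th and 97.5th percentiles of all features were -1.13 and 1.15. The uMT pair gave 1.01 with both values not well above background. Without either uMT naive array the contrast rests on the AID KO pair alone, a difference of 1 array from 1 array whose spread is assumed to be that of the other groups. Then 2 members were past the threshold, Klrk1 at that same 2.18 and Klrb1c at -2.29 by the probe not well above background. Over both genotypes, Sca1p minus Sca1m was -0.31 ± 0.10 for Cd69, 0.16 ± 0.15 for Klrd1 and 0.14 ± 0.30 for Clec2d. In a test of whether the Sca1p difference depended on genotype, 23 of all features and no member passed (lowest limma adjusted p of a member = 0.201).

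The whole complex, from the first Klrb1 to the last Klra gene in RefSeq order, comprises 92 genes, of which 26 were tested, the members other than Klrg1 and Klrc2 among them. Between AID KO and WT total cells, 3 of these 26 rose and 1 fell (15.4%, against 0.888% of all features), with a median difference of 0.17 against 0.01 over all features. Klrk1 and Cd69, described above, are 2 of these 4. Because the 26 include members selected with these contrasts in view, the shares called in this paragraph are a description. Besides Klrk1, the genes that rose were Klrc3, which encodes NKG2E, another partner of CD94, and BC064078, a long non-coding RNA. Klrc3 was at -3.04 and -3.0 in AID KO PLN and MLN against -5.56 to -4.99 in WT, of which 1 array was well above background, a rise of 2.24 ± 0.28 (limma adjusted p = 0.0364). BC064078 was at -2.14 and -2.72 against -4.33 to -3.99 in WT, a rise of 1.78 ± 0.22 (limma adjusted p = 0.0346). In naive cells, BC064078 was at -2.22 and -2.77 in Sca1p and Sca1m AID KO and at -4.93 and -4.38 in uMT, so that it and Klrk1 were the 2 of 26 past the threshold (7.69%, against 0.384% of all features), both lower in uMT. Klra4, a further Ly49 gene named here after its values were seen, was at 0.21 and 0.29 in AID KO total cells against 1.15 to 2.0 in WT, and its difference of -1.30 ± 0.19 did not pass (limma adjusted p = 0.0531).

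None of the 26 passed between uMT and WT, against 0.0349% of all features. Of the 26, 22 stood above 0, with a median of 0.41 against 0.0 over all features. At an unadjusted limma p under 0.05 there were 12, against 4591 of 25796 features. Between MLN and PLN none passed either, against 0.105% of all features. Here 5 stood above 0, with a median of -0.23 against -0.01. At an unadjusted limma p under 0.05 there were 10, against 2352 of 25796 features. Because the 26 include the selected members, these counts are likewise a description.

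Of the 684 genes tested on the whole of chromosome 6, 18 passed between AID KO and WT total cells. This share of 2.63%, against 0.888% of all features, includes the selected members Klrk1 and Cd69 and is likewise a description. In the stretch between Klrg1 and the complex, 2 of 72 tested genes passed (2.78%, against 0.888% of all features). Pianp rose by 6.09 ± 0.25 and the costimulatory receptor gene Cd27 by 0.88 ± 0.10 (limma adjusted p = 0.00441 and 0.0306). In naive cells Pianp was again lower in uMT than in AID KO, by at least 62.7-fold. It was the 1 of 72 that passed there (1.39%, against 0.384% of all features). Between uMT and WT, 0 of the 684 genes passed in limma, against 0.0349% of all features. At an unadjusted limma p under 0.05 there were 122 of the 684, against 4591 of 25796 features.

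**Figure D3:**
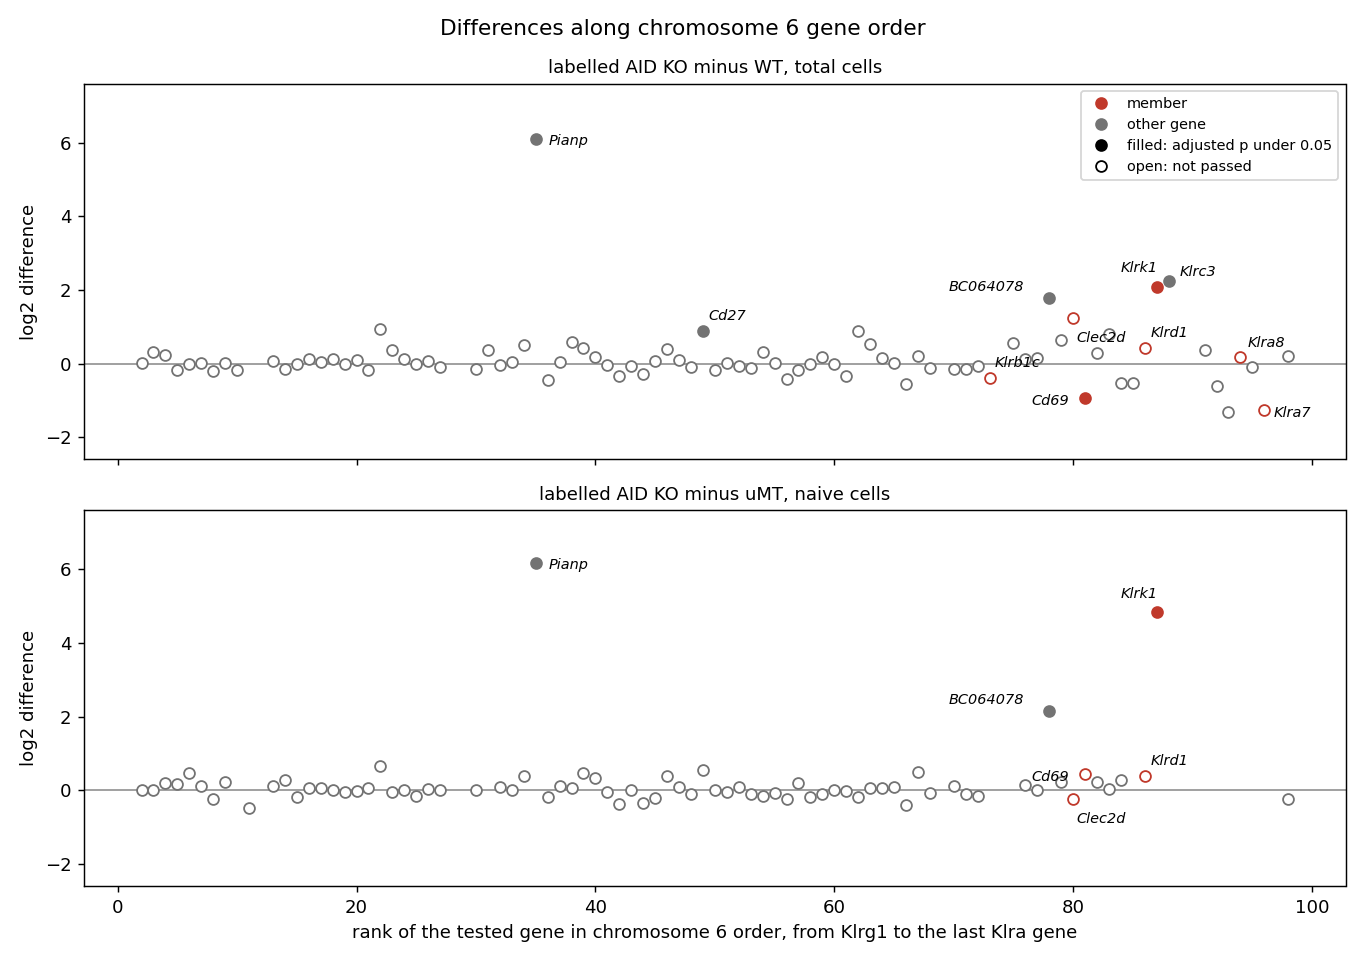
Log2 differences (vertical axis) of tested genes in RefSeq order along chromosome 6 from Klrg1 to the last Klra gene (horizontal axis, rank), for AID KO minus WT in total cells above and AID KO minus uMT in naive cells below. Members are red, filled points have an adjusted p under 0.05, and genes without a group that was well above background on all its arrays are among those left out. Pianp (6.09 above, 6.17 below), BC064078 and Klrk1 (2.09 and 4.84) are filled in both panels.

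Genes that work with the receptors were read from lists of adaptors, ligands, effector and memory genes, and early activation genes. The lists were chosen with earlier results of these data known, so their counts and shares are a description. Of 12 adaptor and signalling genes 11 were tested, and of 16 ligand genes 9. None of either list passed in any of the 6 comparisons in limma; at an unadjusted p under 0.05 there were 1 adaptor gene and 1 ligand gene between AID KO and WT, and 3 adaptor genes and 1 ligand gene between uMT and WT. Of 21 effector and memory genes 20 were tested, and between AID KO and WT only the cytokine gene Ifng passed (5%, against 0.888% of all features). It fell by 1.47 ± 0.16 (limma adjusted p = 0.0262). At an unadjusted limma p under 0.05 there were 8 of the 20 in that comparison, against 3708 of 25796 features. The chemokine receptor gene Cxcr3 rose by 2.13 ± 0.11 in Sca1p over Sca1m cells (limma adjusted p = 0.021), and the repressor gene Zeb2 rose by 1.08 ± 0.13 in uMT over AID KO naive cells (limma adjusted p = 0.0485). Zeb2 was not well above background on either AID KO naive array, so the bound is a rise of at least 1.32-fold. Cxcr3 and Zeb2 were each 1 of 20 (5%), against 0.0155% and 0.384% of all features. In these comparisons 9 and 2 of the 20 had an unadjusted limma p under 0.05, against 2154 and 2291 features. None of the 20 passed in the remaining comparisons. At that unadjusted p there were 11 between MLN and PLN, 8 between the knockouts in total cells and 2 between uMT and WT. Over all features there were 2352, 3161 and 4591.

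All 18 early activation genes, the class to which Cd69 is usually counted, were tested. This list, too, was chosen with earlier results of these data known, so its shares are a description. Between AID KO and WT 7 fell and none rose past the threshold (38.9%, against 0.888% of all features), with a median of -0.52 against 0.01 over all features. The largest falls were those of the nuclear receptor gene Nr4a2 (-2.16 ± 0.20) and the NF-kB feedback gene Tnfaip3 (-1.94 ± 0.11), followed by the phosphatase gene Dusp1 (-1.66 ± 0.10) and the nuclear receptor gene Nr4a1 (-1.66 ± 0.16) at the same size. From AID KO to uMT 4 rose (22.2%, against 0.31% of all features), led by Dusp1 (2.30 ± 0.12) and Fos (1.76 ± 0.13), with a median of 0.70 against -0.01. None of the 18 passed between uMT and WT, with 4 at an unadjusted limma p under 0.05. Cd69 and the median of this list thus both stood lower in the arrays labelled AID KO than in WT, with 2 of the 18 genes above 0. In naive cells none of the 18 passed between the knockouts, with 6 at an unadjusted limma p under 0.05.

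Markers of NK and innate-like lymphocytes, of which 6 of 9 were tested, had a mean level of -2.57 to -2.25 in WT total arrays, of -2.36 and -1.58 in AID KO PLN and MLN, and of -2.17 and -1.86 in uMT PLN and MLN. All 6 were above 0 in the difference of AID KO from WT and 5 of 6 in that of uMT, with medians of 0.42 and 0.40, and none passed (1 and 2 at an unadjusted limma p under 0.05). Their part in the differences of the members was not tested. Of the defining markers, Ncr1 was not well above background on any total array and Itga2 on 1 of the 12 arrays. Tyrobp was well above background on the 8 total arrays and on none of the naive arrays. It was at -4.28 to -3.83 in WT, at -3.54 and -3.35 in AID KO PLN and MLN and at -3.61 and -3.18 in uMT PLN and MLN, so both knockouts lay above WT without overlap. Fcer1g, well above background on 11 arrays, was at -3.26 to -2.95 in WT, -2.88 and -2.24 in AID KO PLN and MLN, and -2.75 and -3.58 in uMT PLN and MLN, so AID KO lay above WT and uMT overlapped it. In naive cells the mean of the NK markers was -3.11 and -3.42 in Sca1p and Sca1m AID KO and -3.21 and -3.47 in uMT. This mean was thus higher in Sca1p than in Sca1m in both genotypes. Only 4 of the 6 markers were above 0 in that difference, with a median of 0.49. None passed, with 4 of the 6 at an unadjusted limma p under 0.05, against 2154 features. Ncr1 was well above background on 1 naive array, Sca1m AID KO, at -2.65, the lower of that pair for Klrk1, and the second Klrb1c probe on 1 naive array, Sca1p AID KO, at -2.69, the higher of that pair. The B cell marker Cd79a was also at -2.61 on Sca1p AID KO, against -6.78 in Sca1m AID KO and -5.88 and -7.08 in Sca1p and Sca1m uMT. The mean of the tested B cell markers was -1.89 and -2.59 in Sca1p and Sca1m AID KO and -2.49 and -2.78 in uMT. No B cell marker passed in limma in either naive comparison, and their part in the naive differences was not tested. None of the tested markers of B cells (5 of 8), CD4 T cells (3 of 4), macrophages and monocytes (3 of 5) or erythroid cells (1 of 5) passed in limma between AID KO and WT (2, 0, 1 and 0 at an unadjusted p under 0.05) or between uMT and WT (1, 0, 2 and 1). In RNA of sorted populations, fewer cells that carry a transcript and less of it per cell cannot be told apart.

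The profiles of Klrk1 and Cd69 were matched to other genes over the 8 total arrays, by the mean absolute difference of profiles after each gene's mean was subtracted, among 11831 named genes well above background on all 8. Closest to Klrk1 were 5830444B04Rik (0.23), Cryab (0.35) and Cpq (0.35), where the median gene stood at 0.75. Closest to Cd69 were Pnrc1 (0.13), Iqcg (0.15) and Irf4 (0.15), where the median gene stood at 0.45. The first of these, Pnrc1, was at 4.04 and 3.70 in AID KO PLN and MLN and at 4.68 to 5.22 on the other 6 arrays. The points of such a profile share their array and slide, and the measure describes only how alike the levels ran.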

How the data were processed

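Per the file headers, the deposited scanner files hold the intensity of each spot from Agilent Feature Extraction 11.0.1.1, corrected there for background and not normalized between arrays, with other values that are flags of 0 or 1 (well above background, saturated, outlier). The deposited series matrix holds log2 values of 28384 probes, all matched to the scanner files, and was an alternative. Per the submitters' processing notes, the same software and version was used.

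Log2 processed intensities were shifted to an equal 75th percentile per array. Between 61 and 342 outlier spots per array were left out, and no spot was saturated. Probes well above background on at least 2 arrays were kept. The printed accession, looked up in the GRCm38.p6 RefSeq table, gave 1 symbol to 32989 of 56605 probes, several to 0 and none to 23616. The array design uses an older assembly, so that table gave names and gene order only. The brightest kept probe stood for a gene.

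All 12 arrays entered 1 fit in limma 3.58.1 (R 4.3.3), checked on simulated data, with node, slide and each knockout as terms in total cells, and with uMT and Sca1p as terms in naive cells. Tests were two-sided. A difference is given only where a whole group was well above background, apart from the Sca1p differences of Klrk1 and Klrb1c. Those are given with their background calls. Where a whole group was well above background and the other was below it, a bound on the fold was computed from the lowest signal well above background. The number of arrays limits the precision.

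The labels pair each PLN knockout array with a WT array, whereas each MLN array was paired with the WT MLN array of its slide. The alternatives were quantile normalization, normexp with an offset of 50 on the median and background signals (the deposited files hold no mean signal), the series matrix, no slide term, the replicate block, the mean of a gene's probes or its other probes, a filter on all 12 arrays, and each array left out.

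The members and gene lists were chosen with earlier results of these data known. Named are all members, up to 3 genes of each list past the threshold, the defining cell markers, up to 6 such genes of the chromosome 6 stretch, the 3 profiles nearest to Klrk1 and Cd69, and Ly6a. A further gene that this rule names is not reported here.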

Additional observations from a re-analysis of the deposited data

How the results depend on the processing

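The number of members past the threshold was 2 between AID KO and WT total cells. It was 3 with quantile normalization, 4 with normexp and 1 with the series matrix (3 members present). Without the slide term it was 1, with the replicate block 0, and without any 1 of the 4 WT arrays 0. Between uMT and WT it was 0, and 1 (Klra8) with normexp. Between uMT and AID KO total cells it was 1, against 2 with normexp, 0 without the slide term, 0 with the replicate block and 0 to 1 without 1 array. Between MLN and PLN it was 0, and 1 (Klra8) with normexp. Between Sca1p and Sca1m it was 0, against 1 with quantile normalization and 0 to 2 without 1 array. Between naive uMT and AID KO it was 1, against 0 with normexp. With the series matrix and with the filter on all arrays it was 0, but Klrk1 is not among the 3 members left in either. With normexp, Klra7 (-1.15, limma adjusted p = 0.0374) and Clec2d (1.25, limma adjusted p = 0.0455) passed between AID KO and WT. The sign turned for Klra8 between AID KO and WT by another probe (-0.12), for Klrd1 between uMT and AID KO with the replicate block (0.06) and without 1 array (-0.20 to 0.16), for Clec2d between MLN and PLN without 1 array (-0.43 to 0.03), and for Klrd1 between Sca1p and Sca1m without 1 array (-0.02 to 0.34). The replicate block could not give MLN against PLN. The number of all features past the threshold was 229 between AID KO and WT but 495 with normexp and 580 with the series matrix, 9 between uMT and WT but 18 with quantile normalization, 63 with normexp and 72 with the series matrix, and 80 between the knockouts in total cells but 173 with normexp and 153 with the series matrix. Between AID KO and WT it fell to 86 without the slide term, to 2 with the replicate block and to 29 to 42 without 1 WT array. Without the slide term it was 2 between uMT and WT and 30 between the knockouts in total cells. With the replicate block it was 2 and 1 in these comparisons. It was 27 between MLN and PLN but 85 with normexp and 61 with the series matrix, 4 between Sca1p and Sca1m but 18, 13 and 13 under these 3 settings, and 99 between the naive knockouts but 61 with normexp and 17 with the series matrix. Without the slide term it was 22 between MLN and PLN, 2 between Sca1p and Sca1m and 60 between the naive knockouts. With the replicate block it was 0 between Sca1p and Sca1m and 42 between the naive knockouts. The cause of these shifts was not tested. For genes other than members, no result by setting is given, so their calls rest on the 1 fit described above.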
